A study of Mus musculus with 2 samples.

Results

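Counted at 1 precursor, mature miR-21a-5p made up 3.77% and 3.34% of the listed mature miRNA reads of the 2 replicates of E9.5 WT heart. These totals count reads again where they are listed at several precursors. Each table listed miR-21a-5p under 2 precursors that overlap on chromosome 11 and hold the same reads. In both replicates 1 of these precursors had a high miRDeep2 score and reads on its star strand, and the other had a score below 0 and 0 star reads. The members were all precursors, called entries here, whose mature miRNA is named miR-21a, miR-21b or miR-21c. This rule found 2 miR-21a entries among 568 entries in replicate 1 and 2 among 523 in replicate 2, with 0 entries for miR-21b and 0 for miR-21c. The names were chosen by the high mature reads and the unequal scores and star reads that miR-21a was already known to have in these tables, so these values are a description without a test.

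The hearts came from wild type C57BL/6 embryos at embryonic day 9.5, which form the only group, and neither a mutant nor a treated small RNA library was compared. Total RNA of the heart was taken up in TRIZOL and treated with DNase, and libraries from the TruSeq Small RNA kit were read as single ends of 50 bases on a HiSeq 2500. The tables held 4942257 mature, 783 loop and 124128 star reads in replicate 1, and 4806179 mature, 754 loop and 132103 star reads in replicate 2. Nothing in the labels says whether the replicates came from separate litters or pools of embryos, so the spread between them may be partly technical.

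A miRNA is cut from a hairpin transcript by Drosha with DGCR8 and then by Dicer, which leaves a short duplex. The strand that is loaded into an Argonaute protein is called mature, the strand that is mostly lost is called star, and the piece between them is the loop. Bases 2 to 8 of the mature strand, the seed, pair with target mRNAs. miR-21 lies within the Vmp1 gene, which encodes a membrane protein of autophagy, and it can be transcribed from a promoter of its own. It is a miRNA of many tissues and is studied in the heart for its abundance in cardiac fibroblasts and its rise in fibrosis.

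The sequences below are shown because they tell the miR-21 family members apart and locate the star strand that each precursor would give. The first 3 were read from the tables and located on the minus strand of NCBIM37, the assembly that mm9 names, and the others are the mature sequences of RefSeq for GRCm38.p6. Capitals mark the seed, and the star sequences of the tables are in lower case throughout.
miR-21a-5p, both entries, chr11:86397621-86397643: uAGCUUAUcagacugauguugac
star of the entry with the higher score, chr11:86397586-86397605: caacagcagucgaugggcug
star of the entry with the lower score, chr11:86397657-86397676: cgugacaucgcauggcugua
RefSeq miR-21a-5p: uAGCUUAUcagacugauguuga
RefSeq miR-21a-3p: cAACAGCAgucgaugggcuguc
RefSeq miR-21b: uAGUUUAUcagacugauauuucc
RefSeq miR-21c: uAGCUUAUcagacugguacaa

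The miR-21a-5p of the tables was 23 bases long and equalled the RefSeq sequence with 1 more base at the 3′ end. Of the mature sequences in replicate 1 whose name was found in RefSeq, 31 of 387 (8.01%) were likewise 1 base longer, 156 were identical and 103 were 1 base shorter. In replicate 2, 27 of 362 (7.46%) were 1 base longer, 152 identical and 101 shorter. The tables give 1 mature sequence for each entry, so the spread of 3′ ends among the reads was not analysed here.

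The star of the entry with the higher score equalled the first 20 bases of RefSeq miR-21a-3p, the strand opposite miR-21a-5p in the hairpin. The star of the entry with the lower score is a different stretch, which lies upstream of the mature strand. Thus the precursors share miR-21a-5p and differ in the arm with which it is predicted to pair.

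miR-21b differs from miR-21a-5p within the seed, by C4U, and further on by G18A, G21U and A22C, counted from 1 at the 5′ end of RefSeq miR-21a-5p with the base of miR-21a first. miR-21c has the seed of miR-21a-5p and shares its first 15 bases, and it differs by A16G, G18A, U19C, U20A and G21A. The whole sequences of miR-21a-5p, miR-21b and miR-21c each had exactly 1 match in NCBIM37, on chromosomes 11, 3 and 8. Of 1738 mature sequences in RefSeq, 2 had the seed of miR-21a-5p, and these were miR-21a-5p and miR-21c. In the tables this seed was found in the mature sequence of the 2 miR-21a entries and in 0 star sequences. miR-21a-5p was therefore the only listed miRNA with this seed in both replicates.

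The entry with the higher score lies at chr11:86397586-86397643 (58 bases, minus strand), and the entry with the lower score at chr11:86397621-86397676 (56 bases, minus strand). They overlap by 23 bases, exactly the mature strand, and span 91 bases together. In the GENCODE vM1 annotation both are exonic. They lie in exon 12, the last of the 12 exons of Vmp1-001, within its 3′ UTR at chr11:86397367-86398812, a feature of 1446 bases that includes the stop codon. The span begins 1136 bases after the start of that feature and ends 219 bases before its end. The annotated hairpin of Mir21 lies at chr11:86397569-86397660 (92 bases) on the same strand. It holds the whole entry with the higher score, whereas 16 bases of the entry with the lower score lie outside it, on its 5′ side. No other listed entry lay within 50 kb in either replicate (0 and 0).

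**Figure D1:**
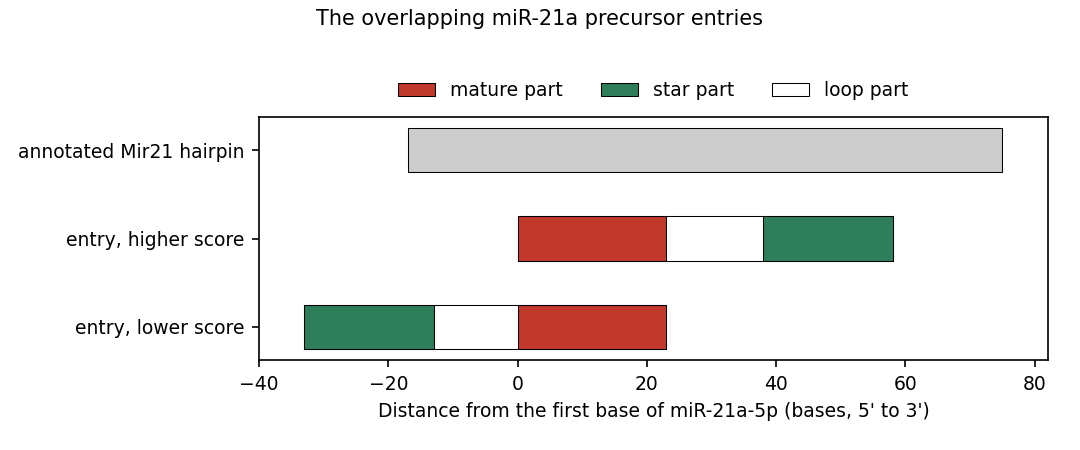
Position of the annotated Mir21 hairpin and of both miR-21a entries, in bases from the first base of miR-21a-5p and in the direction of transcription, with the mature, loop and star parts of each entry. Both entries hold the same 23 mature bases, with the star downstream in the entry with the higher score and upstream, partly outside the hairpin, in the other.

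The score that miRDeep2 gives a precursor is a log-odds score that weighs how far the reads and the fold look like those of a true hairpin. The entry with the higher score had a score of 95000 in replicate 1 and 81000 in replicate 2. Its mature reads numbered 186562 and 160726, its loop reads 0 and 0, and its star reads 84 and 87. Its fold was called significant by the randfold column in both tables. In this entry miR-21a-5p forms the 5′ end of the precursor, which is the arm its name gives.

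The entry with the lower score had a score of -4 in both replicates. It held 186562 and 160726 mature reads, equal to those of the other entry, with 0 loop and 0 star reads in each replicate. A count of 0 allows at most 3 reads, or 0.00161% and 0.00187% of the reads of this entry, by counting error alone. Its fold was not called significant in either table, and miR-21a-5p forms the 3′ end of this precursor, against the arm in its name. The probability of a true positive, as listed, was 0.6 and 0.62 for the entry with the higher score and 0 in both replicates for the other. The mature reads are equal because the same reads stand at both entries, and the score is built from reads and fold.

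RNAfold predicted a minimum free energy of -24.2 kcal/mol for the entry with the higher score and -12.3 kcal/mol for the other. In the first fold 20 of the 23 mature bases were paired, 19 of them with the star. In the second fold 12 mature bases were paired, all 12 with the star. Over all entries the median energy was -24.1 and -24.2 kcal/mol in replicates 1 and 2, with a median of 16 mature bases paired with the star. The miR-21a entry with the higher score was close to this median in energy, and the other entry was less stable and less paired.

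Overlapping entries of this form were not particular to miR-21a. There were 51 such pairs in replicate 1, among 517 separate loci, and 46 in replicate 2, among 477 loci. In all 51 and all 46 of them the entries shared the mature sequence, listed equal mature reads, placed it on opposite ends and overlapped by exactly its length. The entry with the lower score had 0 star reads in 49 and 44 pairs, and the one with the higher score had star reads in 34 and 29. The lower of the scores was below 0 in 40 and 38 pairs, and in 30 and 32 of these the higher one was above 0, as for miR-21a. The entry with the higher score had the more stable predicted fold in 41 of 51 and 38 of 46 pairs, with a median energy of -23.6 and -24.45 kcal/mol against -17.4 and -18.55 kcal/mol. The pairs were ordered by a score that itself weighs reads and fold, so these differences in star reads and energy are partly built in.

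**Figure D2:**
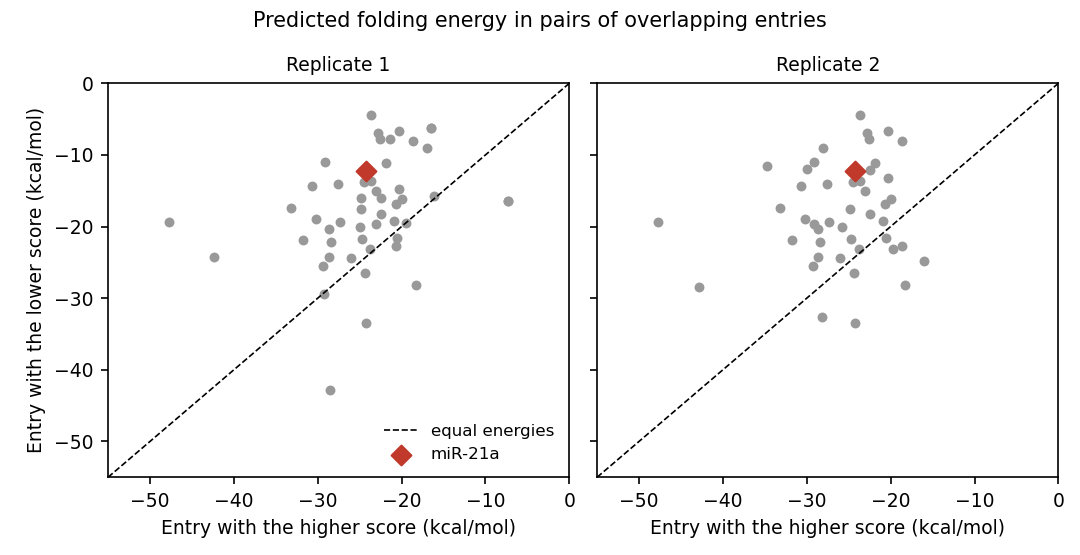
Predicted minimum free energy (kcal/mol) of the entry with the lower score against that of the entry with the higher score, 1 point for each pair of overlapping entries, in replicates 1 and 2. Points above the dashed line of equal energies have the more stable fold in the entry with the higher score, and miR-21a, at -24.2 and -12.3 kcal/mol, is among them. The score that orders each pair itself weighs the fold.

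miR-21a was the pair with the most mature reads. The next was miR-381-3p, a miRNA of the Dlk1-Dio3 imprinted cluster on chromosome 12, with 87372 and 76801 mature reads at each of its entries. Its scores were 44000 and -3.8 in replicate 1 and 39000 and -3.8 in replicate 2, with 8 and 6 star reads at the entry with the higher score and 0 at the other in both. This pair had the pattern of miR-21a, with fewer star reads.

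The other pairs among the 10 with the most reads did not all follow it. miR-379-5p, of the same imprinted cluster, had 30072 and 23491 mature reads, and its lower score was 1.7 in both replicates, with 10 and 5 star reads at that entry. miR-411-5p, also of that cluster, had 21680 and 26292 mature reads and the only large change between replicates in this group, since the lower score was 11000 in replicate 1 and -2.7 in replicate 2 with 11 and 10 star reads. miR-218-5p, a miRNA hosted by the Slit genes, had 25965 and 24400 mature reads, scores of 1.9 and -3 and 0 star reads at both entries. miR-103-1-3p, with 17770 and 16420 mature reads, had scores of 1.9 and 1.3 in both replicates.

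The remaining 4 had a higher entry with many or few star reads and a lower entry with 0. miR-17-5p, of the cell cycle cluster miR-17-92, had 16081 and 16157 mature reads with scores of 2.3 and -5.9 in replicate 1 and 2.3 and -7.7 in replicate 2. miR-24-1-3p and miR-24-2-3p, which share 1 mature sequence, each had 12005 and 11363 mature reads, and their lower scores were -5.1 and 2 in both replicates. miR-486a-5p, an erythroid miRNA, had 5264 and 6380 mature reads and the most unequal folds of the 10, at -47.7 and -19.4 kcal/mol.

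Because the same reads stand at both entries, a sum over a table holds them again. At overlapping entries 451559 mature reads (9.14%) in replicate 1 and 412919 (8.59%) in replicate 2 were listed a further time. miR-21a made up 41.3% and 38.9% of those reads, more than any other pair. With overlapping entries counted once, the mature reads came to 4490698 and 4393260. Reads listed again at separate loci remain in these totals. The largest case was miR-1a, with 492873 and 503921 mature reads at miR-1a-1-3p and 492871 and 503920 at miR-1a-2-3p, more than miR-21a.

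The score of the entry with the higher score followed its reads. It was 0.509 per read on the precursor in replicate 1 and 0.504 in replicate 2. The 189 and 179 entries with a score above 100 had between 0.470 and 0.515 per read (median 0.502) in replicate 1 and between 0.467 and 0.512 (median 0.503) in replicate 2. They include this entry of miR-21a, which therefore could not lie outside the ranges. It was slightly above the median in both replicates. Among all entries its score ranked 5 and 4. A high read number did not go with a high score throughout. Of the 21 and 22 entries with at least 50000 mature reads, 3 and 4 had a score below 10. They were miR-143-3p, a miRNA of smooth muscle, the second entries of miR-21a and miR-381-3p, and in replicate 2 also miR-1a-2-3p. These names were chosen after their scores were seen.

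Counted at 1 of its entries, miR-21a-5p had 186562 mature reads in replicate 1 and 160726 in replicate 2. This was a share of 3.77% (95% Wilson interval 3.76 to 3.79%) and 3.34% (3.33 to 3.36%) of the mature reads, or 3.56% ± 0.30 (SD, n = 2). The totals count reads again where they are listed at several entries. With each mature sequence counted once the mean share was 4.87%. The intervals cover counting error only, and the reads carry no molecular identifiers. The replicates lay farther apart than their intervals are wide, with replicate 1 higher.

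By mean share miR-21a-5p ranked 6 among the entries listed in both replicates, tied with its own second entry. The 3 entries next above were miR-143-3p with 7.32% and 6.19%, miR-148a-3p with 6.57% and 5.30%, and miR-127-3p, another miRNA of the imprinted cluster on chromosome 12, with 4.72% and 5.27%. miR-127-3p exceeded miR-21a-5p by 1.25-fold in replicate 1 and 1.58-fold in replicate 2. Next below stood miR-126a-3p, the endothelial miRNA within Egfl7, with 2.90% and 2.87%, miR-335-3p, hosted by the imprinted gene Mest, with 2.60% and 2.68%, and miR-92a-1-3p of the miR-17-92 cluster with 2.04% and 2.33%. miR-21a-5p exceeded miR-126a-3p by 1.30-fold and 1.16-fold. None of the 6 ranges over the replicates overlapped that of miR-21a-5p, although with 2 replicates a range is a weak measure of spread. Read counts also depend on how well each sequence is ligated and amplified, so the order is one of reads, not of molecules.

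**Figure D3:**
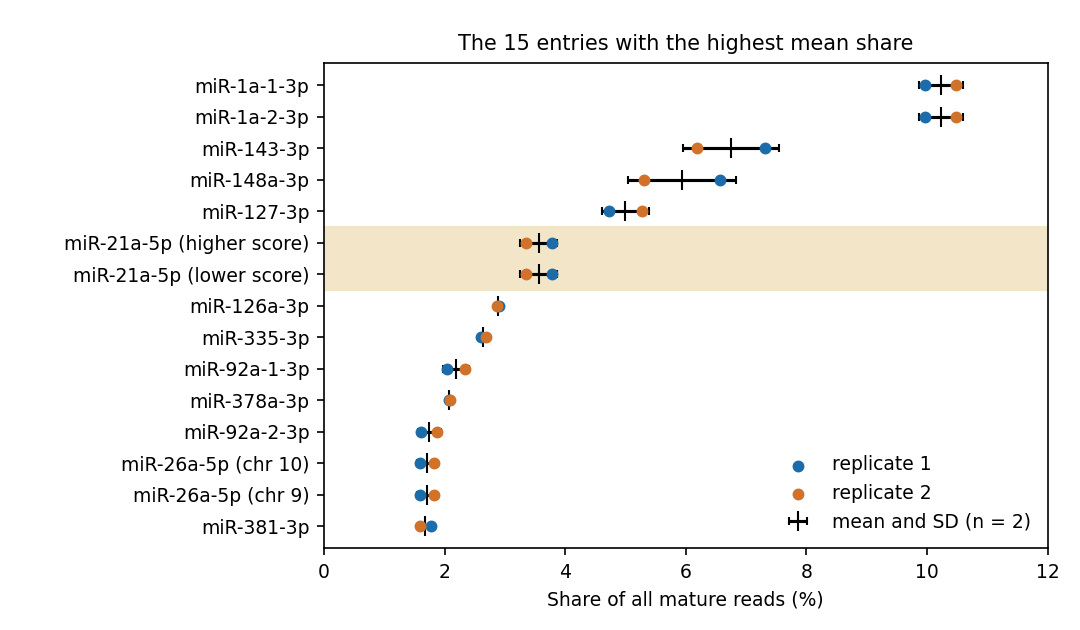
Share of all mature reads (%) of the 15 entries with the highest mean share, with a point for each replicate and the mean and SD (n = 2). The total counts reads again where they are listed at several entries. Both miR-21a entries sit at the same values of 3.77% and 3.34%, below miR-127-3p and above miR-126a-3p.

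Mature reads of the replicates were set against each other with a two-sided exact binomial test on each of 431 entries, which compares 2 libraries and not 2 conditions. miR-21a-5p was 1.13-fold lower in replicate 2, a log2 ratio of -0.17, with an adjusted p of 1.89e-276 by the exact binomial test. The 2 miR-21a entries were both called, as they hold the same reads, in a test that called 41.1% of the entries (177 of 431). Of these calls 119 were higher in replicate 2 and 58 in replicate 1, whereas scaling with the TMM factors of edgeR gave 83 and 96 and with the size factors of DESeq2 78 and 101. Scaling thus decided which way most calls went, and the log2 ratio of miR-21a-5p was -0.24 and -0.25 with those factors, in the same direction. The median log2 ratio over the 431 entries was 0.07.

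In size the difference lay near the middle of all entries with the read totals. The median absolute log2 ratio was 0.19, and 227 of 431 entries (52.7%) had a larger one than miR-21a-5p. With TMM factors 160 entries (37.1%) and with DESeq2 size factors 143 (33.2%) had a larger one. Among the 21 entries with at least 50000 reads in each replicate, which include both miR-21a entries, 7 had a larger one with the read totals and 2 with either set of factors. The coefficient of variation of miR-21a-5p between the replicates was 8.56%. The common value that edgeR terms the biological coefficient of variation was 15.2%. It was estimated over the 431 entries from the same 2 libraries, so it may be partly technical and is no separate measure of variation between hearts. Of these 21 entries 19 were called, so at this depth the test called nearly every abundant entry.

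**Figure D4:**
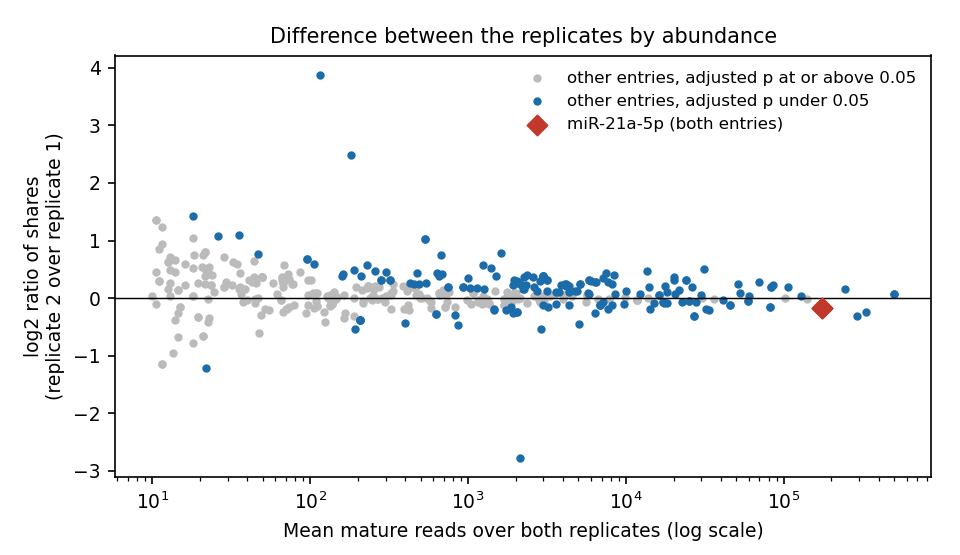
The log2 ratio of shares (replicate 2 over replicate 1) against mean mature reads on a log scale, for the 431 entries tested. miR-21a-5p, with both entries on 1 point, lies at -0.17, below 0 like other entries that were higher in replicate 1.

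Star reads of miR-21a were few beside its mature reads. The entry with the higher score had 84 star reads beside 186562 mature reads in replicate 1 and 87 beside 160726 in replicate 2. That is 0.0450 and 0.0541 star reads per 100 mature reads (0.0496 ± 0.0064, SD, n = 2), or 1 star read for 2221 and 1847 mature reads. As a share of the reads of both arms, the 95% Wilson intervals were 0.0364 to 0.0557% and 0.0439 to 0.0667%, and they overlapped. Over the 289 and 284 loci with at least 100 mature reads, the median was 1.46 and 1.58 star reads per 100 mature reads, with quartiles of 0.105 and 11.7 in replicate 1 and 0.0769 and 10.5 in replicate 2. miR-21a was below the lower quartile in both replicates. Only 62 loci (21.5%) and 68 loci (23.9%) had a lower ratio, and 50 and 53 of those had 0 star reads.

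The miRNAs near miR-21a-5p in rank differed widely in this ratio. miR-126a-3p had 5.55 and 5.89 star reads per 100 mature reads and miR-335-3p had 4.99 and 5.31. miR-143-3p had 1.01 and 1.23, miR-127-3p 1.07 and 0.803, miR-148a-3p 0.485 and 0.572, and miR-92a-1-3p 0.266 and 0.273. All 6 lay above miR-21a in both replicates. miR-1a-1-3p, the most abundant entry and a miRNA of cardiac and skeletal muscle, lay below it at 0.00933 and 0.00635. miR-381-3p, the pair most like miR-21a in its scores, lay below it at 0.00916 and 0.00781. By star reads miR-21a ranked 103 of 333 loci with star reads in replicate 1 and 101 of 321 in replicate 2, against a place of 6 by mature reads.

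**Figure D5:**
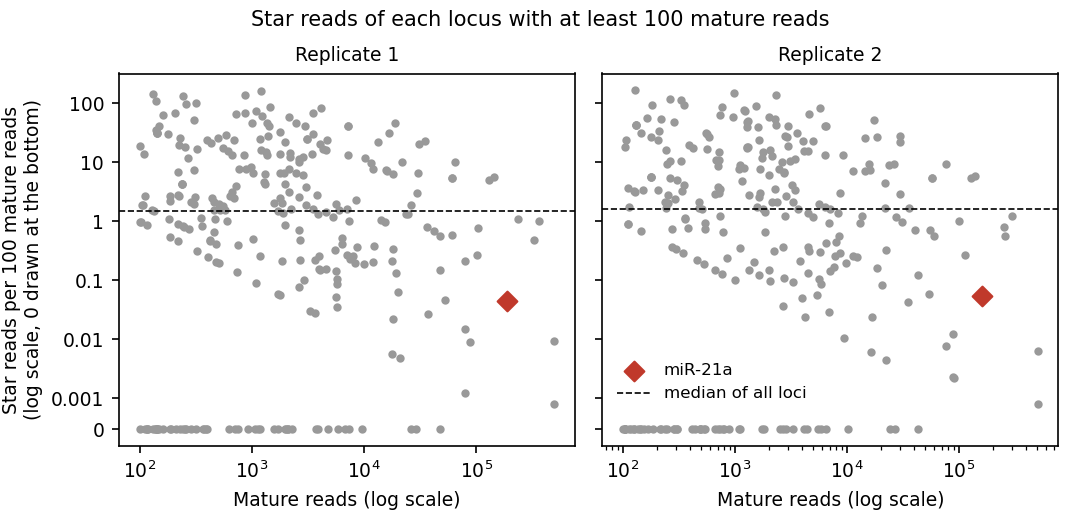
Star reads per 100 mature reads against mature reads, both on log scales with a ratio of 0 drawn at the bottom, for the 289 and 284 loci with at least 100 mature reads in replicates 1 and 2. miR-21a lies at 0.0450 and 0.0541, below the dashed medians of 1.46 and 1.58.

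The ratio of star to mature reads was 1.20-fold higher in replicate 2 for miR-21a, a log2 ratio of 0.27. This was not beyond counting error (two-sided Fisher's exact test, p = 0.25, adjusted p = 0.575). The same exact test called 18.6% of the entries tested (33 of 177), 24 of them higher in replicate 2. With 84 and 87 star reads a change of this size could not be detected.

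Among 12 miRNAs studied in cardiac fibroblasts and fibrosis, 11 were listed in both replicates and miR-101b in neither. Together the 11 held 7.73% and 7.46% of the mature reads, and miR-21a-5p alone had a larger share than any other of them. The next were miR-26a-5p at 1.71% ± 0.16, miR-133a-3p, a muscle miRNA, at 1.21% ± 0.029 and miR-30c-5p at 0.611% ± 0.016 (SD, n = 2). miR-21a-5p exceeded them 2.08-fold, 2.95-fold and 5.82-fold by mean share. miR-24-2-3p stood at 0.240%, miR-199a-3p at 0.140% and miR-101a-3p at 0.104%.

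The miR-29 family, which targets collagen mRNAs, was low. miR-29a-3p had 734 and 770 mature reads (0.0154%), so that miR-21a-5p exceeded it 231-fold. miR-29b-2-3p had 27 and 30 reads and miR-29c-5p 12 and 16, and the latter is the arm opposite to those read for miR-29a and miR-29b. miR-214-5p had 243 and 263 reads, with 131 and 116 star reads per 100 mature reads, so the opposite arm of miR-214 had more reads. Between the replicates 6 of the 11 differed by the exact binomial test at an adjusted p under 0.05, in a test that called 41.1% of all entries, so the count is not a result about the list. Of the 6, 4 were higher in replicate 1, with a median log2 ratio of 0.05 beside 0.07 over all entries. The 4 were miR-21a-5p, miR-101a-3p, miR-133a-3p and miR-199a-3p, and miR-26a-5p and miR-30c-5p were higher in replicate 2. The log2 ratio of miR-30c-5p changed sign with scaling, from 0.05 with the read totals to -0.01 with TMM factors and -0.02 with DESeq2 size factors, and it was not called by the exact test with either (adjusted p = 0.659 and 0.219). With both factors miR-24-2-3p was called in its place, higher in replicate 1.

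miRNAs known as markers of cell types were read beside these values, since a bulk heart holds several cell types and more cells of a type cannot be told apart from more RNA per cell. The cardiomyocyte miRNAs, miR-1a, miR-133a, miR-208a, miR-208b and miR-499, summed to 11.4% and 11.9%, of which miR-208a was listed in replicate 1 only, with 860 reads. The smooth muscle miRNAs miR-143 and miR-145a summed to 7.94% and 6.82%, the endothelial miR-126a held 2.90% and 2.87%, and the skeletal muscle miRNAs miR-206 and miR-133b 0.140% and 0.139%. Nearly all of the skeletal muscle sum was miR-133b-3p, at 0.136% and 0.135%, and miR-206-3p had 192 and 187 reads. The miRNAs of heart muscle were thus present, as the label of heart tissue requires.

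The white blood cell markers had few reads. Of miR-142a, miR-150, miR-155 and miR-223, 3 were listed, with a sum of 0.0118% and 0.0127%, and miR-223 was listed in neither replicate. miR-142a-3p had 227 and 207 reads. The erythroid miRNAs miR-451a, miR-144 and miR-486a summed to 0.109% and 0.137%, the neural list of miR-124, miR-9 and miR-128 to 0.125% and 0.149%, the liver miRNA miR-122 to 0.0421% and 0.0554%, and the epithelial list of miR-200a, miR-200b, miR-200c, miR-141, miR-429 and miR-205 to 0.0353% and 0.0373%. Of these, miR-144 was listed in replicate 2 only, with 73 reads, and miR-124 and miR-141 in replicate 1 only, with 2 and 8 reads. The erythroid sum was mostly miR-486a-5p, at 0.107% and 0.133%, and miR-451a had 128 and 127 reads. The neural sum was mostly miR-128-1-3p, at 0.120% and 0.146%, and miR-9-5p had 237 and 178 reads. Each of these sums was below miR-21a-5p in both replicates. Which cells carry miR-21a-5p was not tested. With the read totals the smooth muscle sum was higher in replicate 1, as was miR-21a-5p. The difference lay in miR-143-3p, while miR-145a-5p held 0.625% and 0.624% (adjusted p = 0.906 by the exact binomial test). Calls for these markers with TMM or DESeq2 factors are not given here, and scaling could change them. A higher share in replicate 1 was not particular to smooth muscle. All 4 cardiomyocyte miRNAs tested were called, 3 of them also higher in replicate 1. The same test called 41.1% of all entries (177 of 431), 58 of them higher in replicate 1 and 119 in replicate 2. Most abundant entries were called and scaling decided which way most calls went, so the count is not a result about the list. Those 3 were miR-208b-3p, miR-499-5p and miR-133a-3p, at log2 ratios of -0.21, -0.19 and -0.05. miR-1a-1-3p was called higher in replicate 2, at 0.07 with the read totals. The median log2 ratio over all 431 entries was also 0.07, so the direction of miR-1a-1-3p rests on this scaling.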

How the data were processed

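The authors ran miRDeep2 on each replicate alone, with clean small RNA reads mapped to mm9, and deposited unnormalized read counts of the mature, loop and star parts of each known precursor, and a rounded miRDeep2 score. The releases of miRBase and miRDeep2, the adapter trimming and the length limits are not given in the sources used here. Columns without a sample numbered 0. The members, lists and tests were chosen with earlier results of these data known.

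From the tables, shares of mature reads were computed as a mean and SD over 2 replicates, with Wilson intervals at 95% confidence. Entries of the replicates were paired where they overlapped by at least 50% of both on the same strand. Start positions on the minus strand were raised by 1, after which all precursor sequences equalled NCBIM37. With 1 group edgeR's quasi-likelihood test has no contrast, so mature reads (at least 20 in sum) were compared by exact binomial tests and star to mature reads by Fisher's exact tests, with Benjamini-Hochberg adjustment over all entries tested and a threshold of 0.05. These tests measure counting error between 2 libraries, not variation between hearts. Precursors were folded with RNAfold 2.7.2. Scaling factors and the dispersion came from edgeR 4.0.16 and DESeq2 1.42.0 in R 4.3.3, and the rest from scipy 1.17.1, pandas 2.3.3, numpy 2.4.6 and matplotlib 3.10.9 in Python 3.11.15.

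Named were the members, the miRNAs with their seed, the 3 entries above and 3 below by mean share, the 10 overlapping pairs with the most reads, entries within 50 kb, and lists of fibroblast and fibrosis miRNAs and of cell type markers. Alternatives counted overlapping entries or mature sequences once, used all reads, varied the scaling and read minimum, and left out each replicate. Of the listed target genes, 1 is not reported here, so no share of targets with a seed match is given. A marker miRNA was read from its highest entry listed under the same name in both replicates, or from the replicate that lists it.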

Additional observations from a re-analysis of the deposited data

How the results depend on the processing

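The share of miR-21a-5p, 3.56% by 1 of its entries, depended most on how repeated entries were counted. It was 3.91% with overlapping entries counted once, 4.87% with each mature sequence counted once, which also raised its place from 6 to 5, and 7.12% when the reads of both entries were added, which counts the same reads again. All reads on the precursor gave 3.47%, and a minimum of 10 mature reads in each replicate 3.57%. Leaving out a replicate gave shares from 3.34% to 3.77%, a place of 6 in both cases, and 0.0450 to 0.0541 star reads per 100 mature reads. Read from the entry with the lower score, the star ratio was 0. Over 7 alternatives the log2 ratio of miR-21a-5p between replicates ran from -0.25 to -0.17, with an adjusted p under 0.05 by the exact test in all 7, and the count of called entries ran from 137 to 184. Without a read minimum the star test gave an adjusted p of 1 by the exact test. That test could not be run on the entry with the lower score, which had 0 star reads in both replicates. No paired analysis was possible because there is 1 group of samples. The 84 and 87 star reads limit the precision of the star ratio, whereas for the mature share the spread between 2 replicates is the larger limit.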

Other observations

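Sequence matches to the seed of miR-21a-5p were sought in mRNAs known as its targets. The tables hold no mRNA, so these are sequence descriptions only. A site was the run ATAAGCT, the reverse complement of bases 2 to 8, searched on the strand of the mRNA in the longest 3′ UTR of each gene in GENCODE vM1, and its longer form ATAAGCTA adds the A opposite base 1. Of 19915 such UTRs, 1213 (6.09%) held ATAAGCT and 347 (1.74%) held ATAAGCTA.

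The longer form was found in Pdcd4, a repressor of translation and tumour growth, Spry1 and Spry2, inhibitors of receptor tyrosine kinase signalling, Reck and Timp3, inhibitors of matrix metalloproteinases, Peli1, a ubiquitin ligase, Nfib, a transcription factor, and Cdc25a, a cell cycle phosphatase. Tpm1, a tropomyosin, had 0 matches in this window. Targets are often found through such matches and the UTRs of these 9 genes are long, with a median of 1669 bases against 893 over all genes, so the matches are no independent evidence. The sites of 4 of them are shown in NCBIM37, with the match in capitals, because they are the letters that the seed would pair with.
Pdcd4, chr19:54003908-54003929, plus strand: gtgtgggtgttctgATAAGCTA
Spry1, chr3:37542781-37542802, plus strand: atgtaagtgcttaaATAAGCTA
Spry2, chr14:106291715-106291736, minus strand: gagacccacattgcATAAGCTA
Reck, chr4:43957265-43957286, plus strand: ttttacagtttgaaATAAGCTA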
